A study of Mus musculus with 9 samples.

Results

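The genes described here copy the genome: 51 DNA replication and S-phase genes, chosen by symbol from the helicase to the chromatin assembly factors. Of these, 50 stood in the expression table, among 16698 genes in all, and all 50 passed the filter on low values. Cdt1, an origin licensing factor, was not analysed here. They were followed in the left ventricle of ICR/CD1 mice, an outbred strain, at postnatal day 14. Transverse aortic constriction (TAC) narrows the aortic arch with a ligature, so that the left ventricle ejects against a raised pressure. The groups were TAC at postnatal day 1 (day-1 TAC, 3 libraries), TAC at postnatal day 7 (day-7 TAC, 3 libraries) and sham surgery (3 libraries), whose day of surgery is not stated. No transgene or other allele is named for any group. Age at surgery and time under load differed together between the TAC groups and cannot be told apart.

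Before S phase, the origin recognition complex (ORC) and CDC6 load rings of the 6 proteins MCM2 to MCM7 onto DNA. With CDC45 and the GINS complex the ring becomes the moving replicative helicase, which opens the double strand ahead of DNA polymerases. Many of these genes are transcribed under E2F factors as cells leave G1. Mouse cardiomyocytes replicate DNA in the first days after birth, partly without division, and then largely stop.

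The promoters of the MCM2-7 genes are shown because 5 of these 6 genes rose in each TAC comparison. RefSeq (GRCm38.p6) gave a promoter of 300 bases, 250 before and 50 after the start, for 41 of the 50 genes, among them 5 MCM2-7 genes. Capitals mark E2F words, here TTTCCCGC, TTTCGCGC, TTTGCCGC or TTTGGCGC on either strand; words that overlap run together. Mcm3 (chr1:20820263-20820562, minus strand) holds a word and a different one after its start, Mcm5 (chr8:75109259-75109558, plus strand) an overlapping pair, Mcm6 (chr1:128359656-128359955, minus strand) an overlapping pair and another word, and Mcm7 (chr5:138171834-138172133, minus strand) a word on each side of its start. Mcm2 (chr6:88898731-88899030, minus strand) holds none of these words in this window. Another Mcm7 promoter (chr5:138171217-138171516, minus strand), not shown, holds no E2F word.
Mcm2: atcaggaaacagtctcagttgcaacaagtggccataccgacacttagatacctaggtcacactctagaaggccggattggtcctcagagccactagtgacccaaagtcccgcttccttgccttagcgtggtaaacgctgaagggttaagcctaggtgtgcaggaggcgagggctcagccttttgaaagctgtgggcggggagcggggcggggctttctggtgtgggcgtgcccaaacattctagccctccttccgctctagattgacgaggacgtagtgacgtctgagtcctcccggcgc
Mcm3: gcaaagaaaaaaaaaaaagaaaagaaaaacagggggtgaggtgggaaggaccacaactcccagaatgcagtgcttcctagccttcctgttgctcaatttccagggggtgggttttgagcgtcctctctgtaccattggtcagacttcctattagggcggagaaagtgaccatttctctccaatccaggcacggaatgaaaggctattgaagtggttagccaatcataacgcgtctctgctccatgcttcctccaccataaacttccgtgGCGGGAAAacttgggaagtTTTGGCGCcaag
Mcm5: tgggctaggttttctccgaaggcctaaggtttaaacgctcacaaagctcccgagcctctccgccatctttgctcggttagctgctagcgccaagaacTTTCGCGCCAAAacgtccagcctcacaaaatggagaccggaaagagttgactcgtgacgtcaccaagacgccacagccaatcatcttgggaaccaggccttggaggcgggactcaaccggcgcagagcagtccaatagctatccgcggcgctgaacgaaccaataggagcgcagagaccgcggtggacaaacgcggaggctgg
Mcm6: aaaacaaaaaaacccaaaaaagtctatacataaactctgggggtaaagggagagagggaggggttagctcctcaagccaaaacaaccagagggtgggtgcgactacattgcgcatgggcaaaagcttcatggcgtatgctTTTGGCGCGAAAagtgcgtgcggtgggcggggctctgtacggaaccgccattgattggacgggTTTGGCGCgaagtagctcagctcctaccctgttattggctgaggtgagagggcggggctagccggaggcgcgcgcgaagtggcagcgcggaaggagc
Mcm7: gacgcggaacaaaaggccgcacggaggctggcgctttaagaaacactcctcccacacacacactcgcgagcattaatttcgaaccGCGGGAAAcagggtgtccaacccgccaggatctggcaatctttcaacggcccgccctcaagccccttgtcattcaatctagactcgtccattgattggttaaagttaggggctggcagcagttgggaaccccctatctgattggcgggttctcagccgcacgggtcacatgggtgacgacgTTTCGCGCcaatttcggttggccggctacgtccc

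An E2F word stood in 4 of these 5 MCM2-7 genes, in 11 of 36 other replication genes (30.6%) and in 4.6% of all 10368 tested genes with a promoter; over all 32851 promoters of this length the share was 2.3%. Replication genes that were higher with TAC in either comparison held a word in 5 of 11 cases, and the others in 10 of 30 (33.3%). Those 5 were the 4 MCM2-7 genes above and Gins3, so this count mostly repeats that of MCM2-7. CCAAT, the word bound by NF-Y, stood on either strand in 68.3% of the replication genes and 42.4% of tested genes. The cell cycle homology words TTTGAA or TTCGAA stood in 26.8% of replication genes and in 16.2% of tested genes. A gene with several promoters counted if any of them held a word. These are matches of letters, and binding was not measured.

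The libraries held 18535202 to 26521005 reads on genes, and 13712 genes were tested. Cardiomyocyte markers such as Myh6 and Tnnt2 were abundant in every library, at log2 values of at least 13.61. Day-1 TAC replicate 3 had 10532 reads of Xist against 7 to 40 in the other libraries, and 18 reads of the Y-linked gene Ddx3y against 3312 to 4706. The replication genes moved together between libraries of a group: day-1 TAC replicate 1 was the highest of its group for 49 of the 50 genes and day-1 TAC replicate 3 the lowest for 44. Among the day-7 TAC libraries, replicate 2 was the highest for 44 genes and replicate 1 the lowest for 46. Among sham libraries, replicate 3 was the highest for 31 and replicate 2 the lowest for 36. The median residual SD of the replication genes was 0.49 on the log2 scale, against 0.16 for 10742 tested genes in the same range of level, so a fold change had to be larger here to pass the test. In bulk tissue, a change in the number of replicating cells and a change in RNA per cell cannot be told apart.

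In day-1 TAC hearts 11 of the 50 replication genes rose and 2 fell against sham, at an adjusted p under 0.05; 19 had an unadjusted p under 0.05. Of all genes tested, 14.3% rose, 20.5% fell and 34.8% passed in either direction. In day-7 TAC hearts 9 of 50 rose and 1 fell, with 18 at an unadjusted p under 0.05, where 13.8% of all tested genes rose, 15.1% fell and 28.9% passed in either direction. The shares of the 50 replication genes that rose, 22% with day-1 TAC and 18% with day-7 TAC, lay a little above these backgrounds. Of MCM2-7, 5 of 6 rose in each comparison; of the other 44 genes, 6 rose and 2 fell with day-1 TAC, and 4 rose and 1 fell with day-7 TAC. Both comparisons use the same sham libraries. The count with day-1 TAC was 4 without day-1 TAC replicate 1, 4 without sham replicate 1 and 5 without sham replicate 2. The count with day-7 TAC was 5 without day-7 TAC replicate 2, 6 without day-7 TAC replicate 3, 18 without day-7 TAC replicate 1, 5 without sham replicate 1, 6 without sham replicate 2 and 17 without day-1 TAC replicate 1.

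The median log2 fold change with day-1 TAC was 1.28 for MCM2-7 and 0.48 for the other replication genes, beside -0.04 for all genes tested. Without day-1 TAC replicate 1 these medians were 0.88 for MCM2-7 and 0.15 for the others, and 8 genes that had not passed turned from above to below sham: Mcm7, Cdc45, Gins1, Dbf4, Pola1, Rfc3, Rrm1 and Rrm2. With day-7 TAC the median was 1.55 for MCM2-7, 0.45 for the others and -0.01 for all genes; without day-7 TAC replicate 2 it was 1.40 for MCM2-7 and 0.28 for the others. All 3 day-1 TAC libraries lay above all 3 sham libraries for 13 of 50 replication genes, where 20.3% of all genes did so. For day-7 TAC this held for 11 of 50, where 22.4% of all genes did so. Of MCM2-7, 5 of 6 genes were clear of sham in this way with day-1 TAC and 6 of 6 with day-7 TAC.

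**Figure D1:**
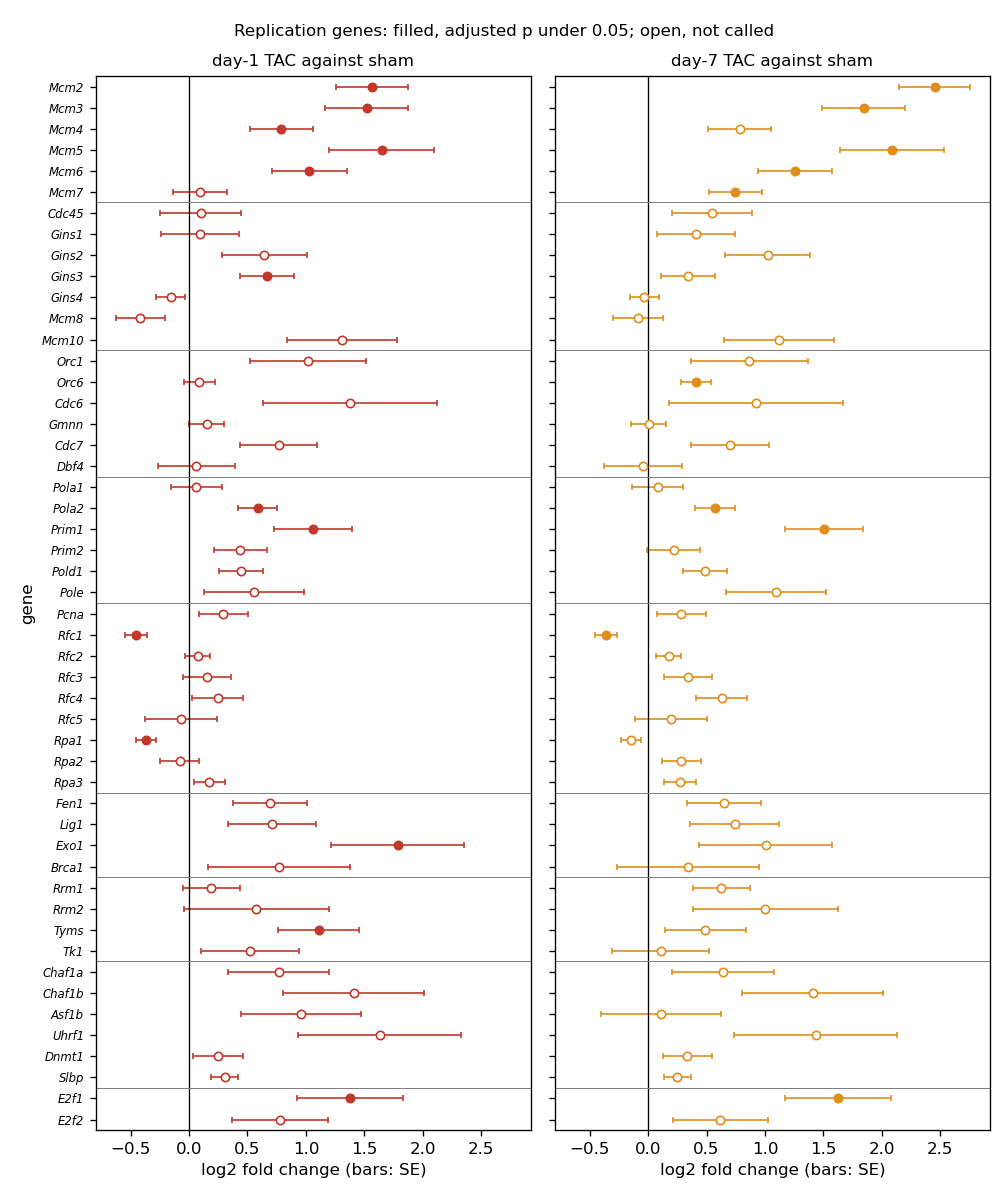
Log2 fold change against sham for the 50 replication genes, ordered by role from the MCM2-7 genes at the top to the E2F activators at the bottom, with day-1 TAC on the left and day-7 TAC on the right. Bars show the standard error, and filled points passed an adjusted p of 0.05. Mcm2, Mcm3, Mcm5 and Mcm6 lie far to the right of 0 in both panels, while Rfc1 lies left of it.

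Mcm2 encodes a ring subunit that also carries parental histones (chromosome 6, 88883474 to 88898780, minus strand, GRCm38/mm10 as for all coordinates here). Its log2 values were 5.11, 4.29 and 4.42 with day-1 TAC, 5.14, 5.72 and 5.63 with day-7 TAC, and 2.70, 2.66 and 3.77 in sham. No TAC library overlapped sham, and no day-1 TAC library overlapped day-7 TAC. With day-1 TAC Mcm2 rose 2.96-fold (a log2 fold change of 1.57, SE 0.31, adjusted p = 0.00351). With day-7 TAC it rose 5.47-fold (2.45, SE 0.31, adjusted p = 0.000509).

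Mcm3 (chromosome 1, 20802968 to 20820312, minus strand) had log2 values of 5.40, 4.28 and 4.0 with day-1 TAC, 4.40, 5.13 and 5.12 with day-7 TAC, and 2.89, 2.65 and 3.58 in sham. Both TAC groups lay wholly above sham. It rose 2.87-fold with day-1 TAC (1.52, SE 0.36, adjusted p = 0.00873) and 3.59-fold with day-7 TAC (1.84, SE 0.36, adjusted p = 0.0043). The calls of Mcm2 and Mcm3 held in both comparisons without any of the 9 libraries. Without day-1 TAC replicate 1, the highest library of its group for most replication genes, they stood at 1.31 and 1.10 with day-1 TAC.

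Mcm5 (chromosome 8, 75109569 to 75128439, plus strand) had log2 values of 4.90, 3.68 and 3.35 with day-1 TAC, 3.78, 4.80 and 4.67 with day-7 TAC, and 2.03, 1.80 and 3.16 in sham. The highest sham library came close to the lowest day-1 TAC library. Mcm5 rose 3.13-fold with day-1 TAC (1.65, SE 0.45, adjusted p = 0.0171) and 4.25-fold with day-7 TAC (2.09, SE 0.45, adjusted p = 0.00691). The day-7 TAC call held without any library, while the day-1 TAC call was lost without day-1 TAC replicate 1 (1.18, adjusted p = 0.0537), sham replicate 1 or sham replicate 2 (adjusted p up to 0.0672).

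Mcm6 (chromosome 1, 128331590 to 128359664, minus strand) had log2 values of 5.64, 4.59 and 4.51 with day-1 TAC, 4.67, 5.5 and 5.24 with day-7 TAC, and 3.63, 3.65 and 4.36 in sham. All TAC libraries lay above all sham libraries. It rose by 1.03 with day-1 TAC (SE 0.32, adjusted p = 0.029) and by 1.26 with day-7 TAC (SE 0.32, adjusted p = 0.0145). The day-1 TAC call was lost without day-1 TAC replicate 1 (0.67, adjusted p = 0.0859), sham replicate 1 or sham replicate 2, and the day-7 TAC call without day-7 TAC replicate 2 (1.08, adjusted p = 0.0593), sham replicate 1 or sham replicate 2.

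Mcm4, which with MCM6 and MCM7 forms the helicase core of the ring (chromosome 16, 15623897 to 15637400, minus strand), had log2 values of 5.33, 4.35 and 4.30 with day-1 TAC, 4.32, 4.96 and 4.69 with day-7 TAC, and 3.59, 3.82 and 4.20 in sham. Both TAC groups lay above sham by a narrow gap. It rose with day-1 TAC (0.79, SE 0.27, adjusted p = 0.0447), a call lost without day-1 TAC replicate 1 (0.46, adjusted p = 0.127), day-7 TAC replicate 3, sham replicate 1 or sham replicate 2. With day-7 TAC it stood at 0.78 (SE 0.27, adjusted p = 0.0523), just above the threshold.

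Mcm7 (chromosome 5, 138164583 to 138172422, minus strand) had log2 values of 4.19, 3.51 and 3.36 with day-1 TAC, 3.90, 4.59 and 4.54 with day-7 TAC, and 3.71, 3.44 and 3.64 in sham. Day-1 TAC overlapped sham and stood at 0.09 (SE 0.23, adjusted p = 0.786), or -0.16 without day-1 TAC replicate 1. Day-7 TAC lay wholly above sham and rose 1.68-fold (0.75, SE 0.23, adjusted p = 0.0332). This call was lost without day-7 TAC replicate 2, day-7 TAC replicate 3 or any sham library (adjusted p up to 0.118). Of its exons, 12.6% overlap other genes, among them Ap4m1 and the microRNA genes Mir93 and Mir25, and the strand setting of the counting is not given in the sources used here.

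**Figure D2:**
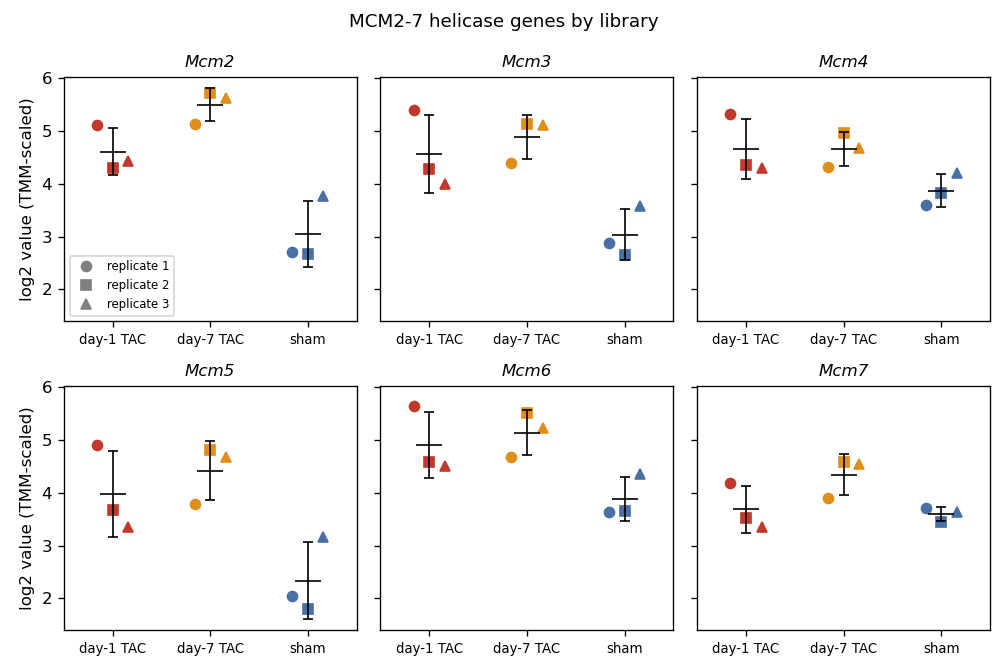
Log2 value of each MCM2-7 gene in every library, with day-1 TAC, day-7 TAC and sham from left to right; symbols are libraries, and bars show the group mean ± SD (n = 3). All 3 day-7 TAC libraries lie above all 3 sham libraries in each panel, and day-1 TAC overlaps sham for Mcm7.

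Per kilobase of exon, on the linear scale of the deposited values, Mcm2 averaged 3.63 with day-1 TAC, 6.59 with day-7 TAC and 1.27 in sham. In sham it was the lowest of the 6 genes, and in day-7 TAC hearts the fourth. The length is the union of all annotated exons of a gene, 6.956 kb for Mcm2 and 3.589 to 4.666 kb for the others, and the ranks depend on it. Before division, the mean log2 value of Mcm2 in sham was 3.045, above Mcm5 at 2.33. With day-7 TAC it was 5.50, the highest of the 6. Mcm4 was the highest in sham at 4.14 per kilobase, with 7.45 after day-1 TAC and 7.13 after day-7 TAC. Mcm3 was the highest after day-7 TAC, at 8.07, with 6.89 after day-1 TAC and 2.27 in sham. The levels of the 6 genes lay between 3.01 and 7.45 with day-1 TAC, between 4.69 and 8.07 with day-7 TAC, and between 1.27 and 4.14 in sham.

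Among the helicase partners and other MCM genes, 1 of 7 rose with day-1 TAC and 0 of 7 with day-7 TAC. In the day-7 TAC comparison Gins2 and Mcm10 had an unadjusted p under 0.05, and voom weights also gave 0. Gins3, a GINS subunit (chromosome 8, 95633453 to 95645060, plus strand), had log2 values of 3.25, 3.06 and 2.61 with day-1 TAC, 2.54, 2.5 and 2.92 with day-7 TAC, and 2.05, 2.10 and 2.78 in sham. It rose with day-1 TAC (0.66, SE 0.23, adjusted p = 0.0465), though the groups overlapped and the call was lost without any of 7 of the 9 libraries (adjusted p up to 0.147). The other 6 genes did not pass in either comparison, and the values given for them are log2 fold changes against sham. Gins2 stood at 0.64 with day-1 TAC and 1.02 with day-7 TAC (adjusted p = 0.0575), but 67.3% of its exons overlap Gse1. Mcm10, which helps to start the fork, stood at 1.31 with day-1 TAC (adjusted p = 0.0523) and 1.12 with day-7 TAC (adjusted p = 0.0998). Gins1 stood at 0.09 with day-1 TAC and 0.41 with day-7 TAC, the GINS-associated helicase factor Cdc45 at 0.10 with day-1 TAC and 0.55 with day-7 TAC, Gins4 at -0.16 with day-1 TAC and -0.03 with day-7 TAC, and Mcm8, an MCM relative of recombination, at -0.42 with day-1 TAC and -0.09 with day-7 TAC.

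Of the origin licensing and firing genes, 0 of 6 rose in the limma test with day-1 TAC, where Cdc7 had an unadjusted p under 0.05 and voom weights also gave 0, and 1 of 6 with day-7 TAC. Orc6, an ORC subunit (chromosome 8, 85299632 to 85308278, plus strand), had log2 values of 4.36, 4.23 and 4.20 with day-1 TAC, 4.32, 4.83 and 4.61 with day-7 TAC, and 4.32, 4.05 and 4.15 in sham. It rose with day-7 TAC (0.41, SE 0.13, adjusted p = 0.0384), where day-7 TAC replicate 1 lay level with the highest sham library, and the call was lost without any of 5 libraries (adjusted p up to 0.142). Orc1 and Cdc6 were scarce in sham, with 9 to 22 and 12 to 31 reads. Orc1 stood at 1.02 with day-1 TAC and 0.86 with day-7 TAC, and Cdc6 at 1.38 with day-1 TAC and 0.93 with day-7 TAC. The kinase gene Cdc7 stood at 0.77 with day-1 TAC and 0.70 with day-7 TAC, its activator Dbf4 at 0.06 with day-1 TAC and -0.04 with day-7 TAC, and Gmnn, the licensing inhibitor geminin, at 0.15 with day-1 TAC and 0.00 with day-7 TAC.

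Of the polymerase and primase genes, 2 of 6 rose in each comparison, the same pair. Prim1, the catalytic primase subunit (chromosome 10, 128015168 to 128030037, plus strand), had log2 values of 3.44, 2.65 and 2.32 with day-1 TAC, 2.60, 3.68 and 3.46 with day-7 TAC, and 1.65, 1.45 and 2.13 in sham. All TAC libraries lay above sham. It rose 2.08-fold with day-1 TAC (1.06, SE 0.33, adjusted p = 0.0324) and 2.83-fold with day-7 TAC (1.50, SE 0.33, adjusted p = 0.00827). The day-7 TAC call held without any library, and the day-1 TAC call was lost without day-1 TAC replicate 1 (0.74, adjusted p = 0.11), day-1 TAC replicate 2, sham replicate 1 or sham replicate 2.

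Pola2, the accessory subunit of polymerase alpha, which works with primase (chromosome 19, 5940542 to 5964202, minus strand), had log2 values of 4.63, 4.59 and 4.34 with day-1 TAC, 4.12, 4.80 and 4.60 with day-7 TAC, and 3.76, 4.12 and 3.93 in sham. Day-1 TAC lay above sham, and day-7 TAC replicate 1 touched it. It rose by 0.59 with day-1 TAC (SE 0.17, adjusted p = 0.0216) and by 0.57 with day-7 TAC (SE 0.17, adjusted p = 0.0279). Those calls were lost without day-1 TAC replicate 1, day-1 TAC replicate 2 or sham replicate 1, and without day-7 TAC replicate 2, day-7 TAC replicate 3, sham replicate 1 or sham replicate 3. The catalytic gene Pola1 stood at 0.06 with day-1 TAC and 0.08 with day-7 TAC, the other primase gene Prim2 at 0.44 with day-1 TAC and 0.22 with day-7 TAC, Pold1, of the lagging-strand polymerase, at 0.45 with day-1 TAC and 0.48 with day-7 TAC, and Pole, of the leading-strand polymerase, at 0.56 with day-1 TAC and 1.10 with day-7 TAC (adjusted p = 0.0793).

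The clamp, clamp loader and single-strand binding genes held the falls. Rfc1, the large subunit of the clamp loader (chromosome 5, 65261850 to 65335670, minus strand), had log2 values of 5.67, 5.69 and 5.49 with day-1 TAC, 5.54, 5.79 and 5.80 with day-7 TAC, and 6.20, 6.0 and 6.0 in sham. No TAC library reached a sham library. It fell by 0.45 with day-1 TAC (SE 0.10, adjusted p = 0.00556) and by 0.36 with day-7 TAC (SE 0.10, adjusted p = 0.0187). The day-1 TAC call held without any library, and the day-7 TAC call was lost without day-7 TAC replicate 1 or sham replicate 1 (adjusted p up to 0.0676).

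Rpa1, the large subunit of the single-strand binding protein RPA (chromosome 11, 75298166 to 75348324, minus strand), had log2 values of 6.12, 6.03 and 5.85 with day-1 TAC, 6.10, 6.30 and 6.27 with day-7 TAC, and 6.39, 6.35 and 6.36 in sham. It fell with day-1 TAC (-0.37, SE 0.08, adjusted p = 0.00768), also without any library, and stood at -0.14 with day-7 TAC (adjusted p = 0.223). Each TAC group lay below sham. Of the other loader genes, Rfc2 stood at 0.07 with day-1 TAC and 0.18 with day-7 TAC, Rfc3 at 0.16 with day-1 TAC and 0.34 with day-7 TAC, Rfc4 at 0.24 with day-1 TAC and 0.63 with day-7 TAC (adjusted p = 0.0524) and Rfc5 at -0.07 with day-1 TAC and 0.20 with day-7 TAC. Rpa2 stood at -0.08 with day-1 TAC and 0.28 with day-7 TAC, and Rpa3 at 0.17 with day-1 TAC and 0.27 with day-7 TAC. Pcna, the clamp itself, stood at 0.29 in day-1 TAC and 0.28 in day-7 TAC hearts; reads may be shared with its processed copy Pcna-ps2, which stood at 0.48 with day-1 TAC and 0.80 with day-7 TAC (adjusted p = 0.0514).

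Exo1, a nuclease of mismatch repair and resection (chromosome 1, 175880581 to 175913489, plus strand), was scarce in sham. Its log2 values were 2.51, 1.05 and 0.68 with day-1 TAC, -0.41, 1.52 and 0.81 with day-7 TAC, and -0.32, -0.98 and 0.20 in sham, where it had 16, 13 and 22 reads. It was above 0, the value of the filter, in all 3 day-1 TAC libraries, 2 day-7 TAC libraries and 1 sham library, so it passed the filter mainly through the TAC libraries. Exo1 rose 3.44-fold with day-1 TAC (1.78, SE 0.57, adjusted p = 0.0337), a call lost without day-1 TAC replicate 1 (1.23, adjusted p = 0.118), sham replicate 1 or sham replicate 2; with no filter on low values the adjusted p was also 0.0337. With day-7 TAC it stood at 1.01 (adjusted p = 0.208). Lig1, the ligase that joins Okazaki fragments, stood at 0.71 with day-1 TAC and 0.74 with day-7 TAC, the flap nuclease gene Fen1 at 0.69 with day-1 TAC and 0.65 with day-7 TAC, and Brca1, of double-strand break repair, at 0.77 with day-1 TAC and 0.34 with day-7 TAC; of the Fen1 exons, 84.2% overlap genes on the other strand.

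Tyms, thymidylate synthase (chromosome 5, 30058202 to 30073617, minus strand), had log2 values of 4.12, 2.94 and 2.75 with day-1 TAC, 2.43, 3.11 and 2.41 with day-7 TAC, and 2.0, 1.89 and 2.59 in sham. Day-1 TAC lay above sham, and day-7 TAC overlapped it. Tyms rose 2.16-fold with day-1 TAC (1.11, SE 0.35, adjusted p = 0.0309), but not without day-1 TAC replicate 1 (0.69, adjusted p = 0.0833), sham replicate 1 or sham replicate 2. With day-7 TAC it stood at 0.49 (adjusted p = 0.316). The ribonucleotide reductase gene Rrm1 stood at 0.19 with day-1 TAC, or -0.09 without day-1 TAC replicate 1, and at 0.63 with day-7 TAC (adjusted p = 0.0781). Its partner Rrm2 stood at 0.58 with day-1 TAC, or -0.15 without that library, and at 1.00 with day-7 TAC. The thymidine kinase gene Tk1 stood at 0.52 with day-1 TAC and 0.11 with day-7 TAC.

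Of the 6 chromatin assembly and maintenance genes, 0 passed the limma test in either comparison. An unadjusted p under 0.05 was given for Chaf1b, Uhrf1 and Slbp with day-1 TAC and for Chaf1b with day-7 TAC; voom weights called Slbp with day-1 TAC and 0 genes with day-7 TAC. Chaf1b, of the assembly factor CAF-1, stood at 1.41 with day-1 TAC (adjusted p = 0.0943) and 1.41 with day-7 TAC (adjusted p = 0.106). Uhrf1, which guides maintenance methylation, stood at 1.63 with day-1 TAC (adjusted p = 0.0936) and 1.44 with day-7 TAC (adjusted p = 0.147). Its log2 values spanned 2.19 to 4.24 in day-1 TAC, 1.35 to 3.83 in day-7 TAC and 0.37 to 2.20 in sham libraries. Chaf1a stood at 0.77 with day-1 TAC and 0.64 with day-7 TAC, with 52.5% of its exons overlapping Ubxn6, the histone chaperone gene Asf1b at 0.96 with day-1 TAC and 0.11 with day-7 TAC, the maintenance methyltransferase gene Dnmt1 at 0.25 with day-1 TAC and 0.34 with day-7 TAC, and Slbp, which binds histone mRNA, at 0.30 with day-1 TAC (adjusted p = 0.0605) and 0.25 with day-7 TAC.

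E2f1, an activator of S-phase genes (chromosome 2, 154559407 to 154569892, minus strand), had log2 values of 2.97, 1.72 and 1.56 with day-1 TAC, 1.55, 2.96 and 2.49 with day-7 TAC, and 0.58, 0.18 and 1.35 in sham. The TAC groups lay above sham by a narrow gap. It rose 2.60-fold with day-1 TAC (1.38, SE 0.45, adjusted p = 0.0382) and 3.09-fold with day-7 TAC (1.63, SE 0.45, adjusted p = 0.0226). Each call was lost without 4 of the 9 libraries, the highest adjusted p being 0.131 with day-1 TAC and 0.0895 with day-7 TAC. With voom weights on recovered reads the day-1 TAC call was lost (adjusted p = 0.0501), and the day-7 TAC call held. E2f2 stood at 0.78 with day-1 TAC and 0.62 with day-7 TAC.

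**Figure D3:**
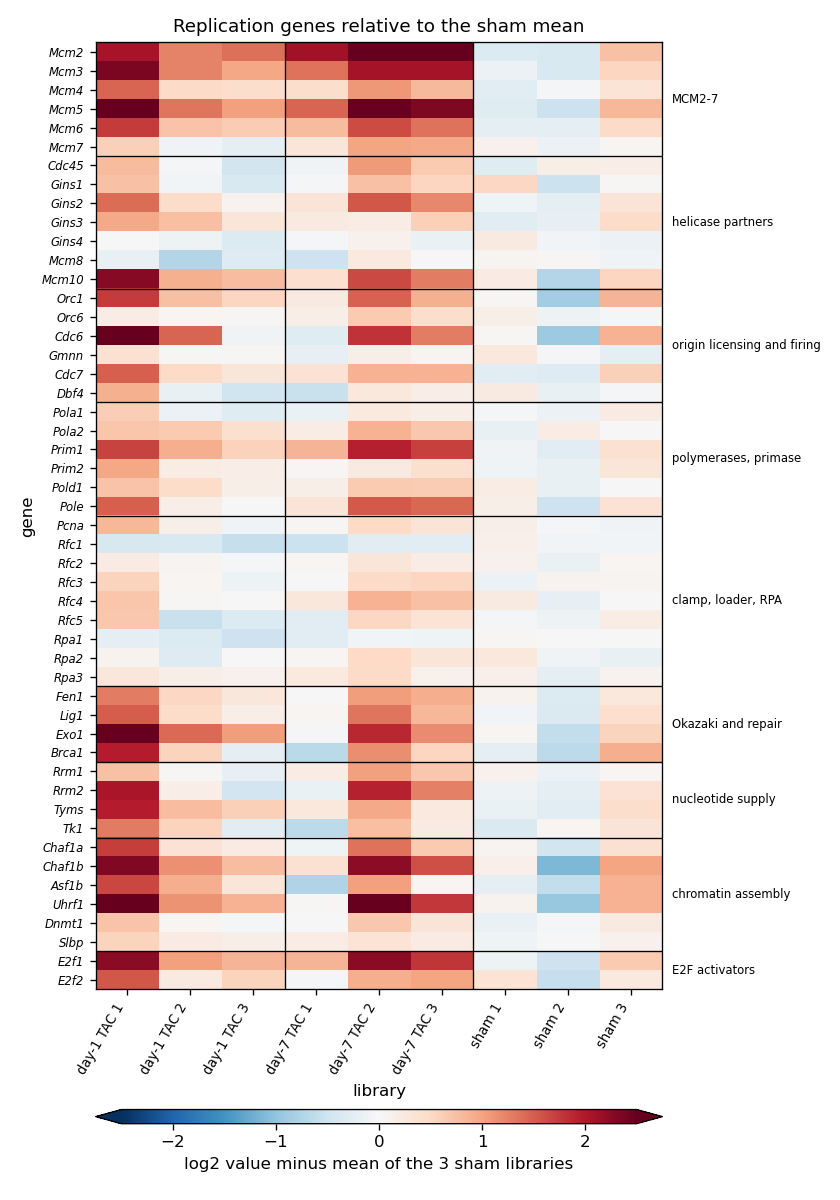
Each replication gene in each library as its log2 value minus the mean of the 3 sham libraries, from blue below to red above; colours stop at ± 2.5. The rows of MCM2-7 are red in nearly every TAC library, while most other rows are red mainly in day-1 TAC replicate 1 and in day-7 TAC replicates 2 and 3.

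The helicase genes were then set against the rest within each library. Their mean log2 value minus that of the other 44 genes was 1.39, 1.21 and 1.32 with day-1 TAC, 1.78, 1.61 and 1.76 with day-7 TAC, and 0.50, 0.72 and 0.93 in sham. The 3 groups did not overlap, and day-1 TAC replicate 1 lay with its group. Group means were 1.31 ± 0.09 with day-1 TAC, 1.72 ± 0.09 with day-7 TAC and 0.71 ± 0.22 in sham (SD, n = 3). Gene length enters these differences equally in every library. The mean of MCM2-7 itself spanned 3.99 to 5.09 with day-1 TAC, 4.37 to 5.12 with day-7 TAC, and between 3.00 and 3.79 in sham libraries. That of the other genes spanned 2.67 to 3.71 with day-1 TAC, 2.59 to 3.51 after TAC at day 7, and 2.28 to 2.86 in sham libraries, so the other genes overlapped sham in both TAC groups.

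Mitosis genes were tested in the same fit. Mki67, a marker of cycling cells, had 2925, 834 and 500 reads with day-1 TAC, 243, 1290 and 641 with day-7 TAC, and 1038, 581 and 1267 in sham. Both TAC groups overlapped sham, at 0.31 (adjusted p = 0.77) with day-1 TAC and -0.64 (adjusted p = 0.542) with day-7 TAC. Top2a, the topoisomerase of dividing cells, stood at 0.69 with day-1 TAC (adjusted p = 0.464) and -0.09 with day-7 TAC (adjusted p = 0.937). Of 25 mitosis genes, 1 rose and 1 fell in each comparison. The fold change was positive for 19 of the 25 with day-1 TAC (median 0.27) and for 2 with day-7 TAC (median -0.32). By library, the mean log2 value of these 25 was 4.06, 2.37 and 1.92 with day-1 TAC. It was 1.27, 3.07 and 2.33 with day-7 TAC, and 2.93, 1.97 and 3.09 in sham. Only day-1 TAC replicate 1 lay above every sham library. Of all 13712 genes tested, 6284 were positive with day-1 TAC and 6654 with day-7 TAC. Of the 44 replication genes other than MCM2-7, 38 were positive with day-1 TAC and 39 with day-7 TAC. Without day-1 TAC replicate 1 the first count was 31, and without day-7 TAC replicate 2 the second was 34. The median residual SD of the mitosis genes was 0.95, against 0.49 for those 44, so a larger change was needed to pass, and the lists were not tested against each other. Cenpa, the centromeric histone, rose (0.73 with day-1 TAC and 1.03 with day-7 TAC), and the kinetochore gene Cenpf fell (-3.12 with day-1 TAC and -2.65 with day-7 TAC).

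The mean of MCM2-7 exceeded that of the mitosis genes by 1.04 to 2.07 with day-1 TAC, 2.05 to 3.10 with day-7 TAC, and in sham by 0.16 to 1.03. The extreme library was day-7 TAC replicate 1: its mitosis mean of 1.27 was the lowest of the 9 libraries, while its MCM2-7 mean of 4.37 exceeded every sham library.

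**Figure D4:**
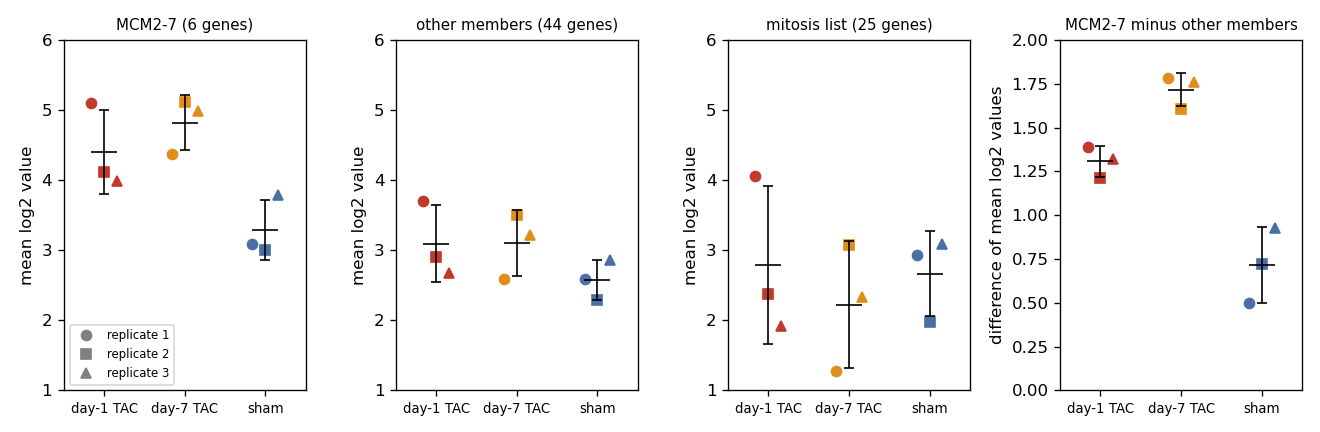
Mean log2 value of MCM2-7, of the other 44 replication genes and of 25 mitosis genes in each library, and at the right the MCM2-7 mean minus the mean of the other replication genes; symbols are libraries, and bars show the group mean ± SD (n = 3). The difference separates the groups, from 1.21 to 1.39 in day-1 TAC, 1.61 to 1.78 in day-7 TAC and 0.50 to 0.93 in sham, while the mitosis means overlap.

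Between the TAC groups, 0 of 50 replication genes passed the limma test, with 4 at an unadjusted p under 0.05, and voom weights on recovered reads also gave 0; of all genes tested, 16.7% passed. Those 4 genes were lower with day-1 TAC: Mcm2 at -0.89 (adjusted p = 0.0721), Mcm7 at -0.66 (adjusted p = 0.0749), Orc6 at -0.32 (adjusted p = 0.113) and Rpa1 at -0.22 (adjusted p = 0.0924). Mcm2 was called when the fit held only these groups (adjusted p = 0.0366), without day-1 TAC replicate 1 (0.0402) or without sham replicate 3 (0.0253). Mcm7 was called without day-1 TAC replicate 1 (0.019) or day-7 TAC replicate 1 (0.0364). The median difference was -0.38 for MCM2-7 and -0.03 for the other replication genes, as for all genes tested; without day-1 TAC replicate 1 it was -0.82 for MCM2-7 and -0.29 for the others.

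Beyond these genes, other replication factors rose in 6 and fell in 3 of 37 with day-1 TAC, and rose in 7 and fell in 2 with day-7 TAC. Of all genes tested, 34.8% passed with day-1 TAC, 28.9% with day-7 TAC and 16.7% between the TAC groups. The counts of this list and of the lists below stand beside those shares, and no list was tested as a set. The fork genes Pole4 (0.49 with day-1 TAC and 0.55 with day-7 TAC), and Timeless (0.52 with day-1 TAC and 0.46 with day-7 TAC) and the ORC gene Orc2 (0.27 with day-1 TAC and 0.43 with day-7 TAC) rose in both, and Top1, a topoisomerase, fell in both (-0.29 with day-1 TAC and -0.47 with day-7 TAC). The topoisomerase gene Top2b (-0.27) and Mcmbp, an MCM-binding protein gene (-0.24), fell with day-1 TAC, and Pold4, a polymerase delta subunit gene, fell with day-7 TAC (-0.42). Between the TAC groups Mcmbp (-0.42, adjusted p = 0.00552) and Top2b (-0.25) were lower with day-1 TAC, and Pold4 was higher (0.52).

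Other nucleotide synthesis genes rose in 4 and fell in 3 of 25 with day-1 TAC, and rose in 8 and fell in 3 with day-7 TAC. The deaminase gene Dctd, which makes dUMP for thymidylate synthase, rose by 1.23 with day-1 TAC and 1.44 with day-7 TAC, and the folate and purine genes Mthfd1 (0.58 with day-1 TAC and 0.69 with day-7 TAC) and Atic (0.62 with day-1 TAC and 0.75 with day-7 TAC) rose in both. Shmt1, a folate enzyme, rose with day-7 TAC (1.19, adjusted p = 0.000275) and was lower with day-1 TAC than with day-7 TAC (-1.53, adjusted p = 0.000583), and Ctps2, a CTP synthase gene, fell in both (-0.86 with day-1 TAC and -0.36 with day-7 TAC) and was lower with day-1 TAC than with day-7 TAC (-0.51, adjusted p = 0.0151). The other CTP synthase gene, Ctps, rose with day-7 TAC (0.77) and was lower with day-1 TAC than with day-7 TAC (-0.52). Adss, of AMP synthesis, also rose with day-7 TAC (0.47) and was lower with day-1 TAC by comparison (-0.41). In that comparison 1 of the 25 was higher and 5 were lower.

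Of 19 genes of the E2F, RB and DREAM group, 5 rose and 3 fell with day-1 TAC, 4 rose and 2 fell with day-7 TAC, and 0 were higher and 1 was lower between the TAC groups. E2f3, an activator E2F, had log2 values of 4.97, 4.77 and 4.51 with day-1 TAC, 5.11, 4.97 and 4.96 with day-7 TAC, and 3.70, 3.87 and 4.18 in sham, and rose by 0.83 with day-1 TAC and 1.10 with day-7 TAC. The groups against sham did not overlap, with a SD within groups of 0.08 to 0.25, against 0.59 to 0.77 for E2f1. Rbl2, which holds E2F targets down in resting cells, fell (-0.84 with day-1 TAC and -0.72 with day-7 TAC), as did the E2F partner gene Tfdp2 (-1.35 with day-1 TAC and -0.99 with day-7 TAC). Mycn rose with day-1 TAC (1.40). The other called E2F genes also rose. E2f5 rose by 0.32 with day-1 TAC and 0.34 with day-7 TAC, and E2f6 by 0.32 with day-1 TAC and 0.22 with day-7 TAC. E2f4 rose by 0.35 with day-1 TAC, though these libraries overlapped sham. Rb1 fell with day-1 TAC (-0.28). Dyrk1a, a kinase of DREAM assembly, rose with day-7 TAC (0.52) and was lower with day-1 TAC than with day-7 TAC (-0.53).

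Of 15 genes of G1 and S cyclins, their kinases and regulators, 5 rose and 4 fell with day-1 TAC. With day-7 TAC 2 rose and 2 fell, and 2 were lower between the TAC groups. Cdk4 rose (0.52 with day-1 TAC and 0.61 with day-7 TAC), the inhibitor gene Cdkn1b (p27) fell (-0.86 with day-1 TAC and -0.81 with day-7 TAC), and Ccnd2 rose (0.77 with day-1 TAC and 1.16 with day-7 TAC). Cdk6 fell with day-1 TAC (-1.17) and was lower than with day-7 TAC (-0.73, adjusted p = 0.0138), as did Cdk2 (-0.52 with day-1 TAC against sham and -0.53 against day-7 TAC). The inhibitor gene Cdkn1c (p57) fell in both (-0.37 with day-1 TAC and -0.43 with day-7 TAC). Not all inhibitor genes moved this way: Cdkn1a (p21) did not pass the limma test with day-7 TAC, but voom weights called it higher there. Checkpoint and repair genes rose in 2 and fell in 2 of 26 with day-1 TAC, rose in 3 and fell in 0 with day-7 TAC, and 1 was lower between the TAC groups, the kinase gene Atr (-0.44). Atr also fell with day-1 TAC against sham (-0.46). The checkpoint gene Rad17 (0.43 with day-1 TAC and 0.45 with day-7 TAC) and the crosslink repair gene Fanca (1.31 with day-1 TAC and 1.17 with day-7 TAC) rose in both, and the kinase gene Chek1 rose with day-7 TAC (1.65). Other chromatin genes rose in 2 and fell in 0 of 19 with day-1 TAC, rose in 2 and fell in 1 with day-7 TAC, and 1 was higher and 3 were lower between the TAC groups. The histone H2B gene Hist1h2bc had the smallest p of this list in every comparison: it rose with day-1 TAC (0.56, adjusted p = 0.00759), fell with day-7 TAC (-0.78, adjusted p = 0.00182) and was higher with day-1 TAC than with day-7 TAC (1.33, adjusted p = 0.000583). Its reads may be shared with near-identical histone genes. Hirip3, which binds histones, rose with day-1 TAC (0.49), and the chaperone genes Nasp (0.37) and Supt16 (0.24) rose with day-7 TAC. Between the TAC groups Nasp (-0.40), Suz12 (-0.29) and Rbbp7 (-0.23) were lower with day-1 TAC.

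Markers of other cell types moved with the groups, and their part in the values above was not tested. Granulocyte markers rose in 5 of 6 tested with day-1 TAC and 6 of 6 with day-7 TAC, with summed linear levels of 6.24 to 29.6 in day-1 TAC libraries, 29.0 to 68.2 in day-7 TAC libraries and 1.72 to 3.69 in sham libraries. In the sham libraries the 6 tested markers had mean log2 values of -1.37, -1.60 and -2.30, below the filter value of 0. They thus passed the filter mainly through TAC libraries, so these counts of rises were partly set by the filter. Macrophage markers rose in 4 of 10 with day-1 TAC, fell in 2 of 10 with day-7 TAC, and were higher in 6 of 10 between the TAC groups, with sums of 162 to 231 in day-1 TAC libraries, 117 to 154 in day-7 TAC libraries and 143 to 187 in sham libraries. Fibroblast markers rose in 4 and fell in 1 of 10 with day-1 TAC, and rose in 1 with day-7 TAC, with sums of 5737 to 7669 in day-1 TAC libraries, 5308 to 5945 in day-7 TAC libraries and 4194 to 5538 in sham libraries. Endothelial markers fell in 4 of 10 with day-1 TAC, and fell in 3 and rose in 1 with day-7 TAC, with sums of 1572 to 1725 in day-1 TAC libraries, 1655 to 1716 in day-7 TAC libraries and 1735 to 1843 in sham libraries. Of 10 cardiomyocyte markers, 1 rose and 2 fell in each TAC comparison with sham, with sums of 99689 to 127735 in day-1 TAC libraries, 116799 to 125537 in day-7 TAC libraries and 133865 to 140431 in sham libraries. Of 5 erythroid markers, the limma test and voom called 0 in each of the 3 comparisons (unadjusted p under 0.05 for 1 with day-1 TAC, 0 with day-7 TAC and 1 between the TAC groups), with sums of 635 to 866 in day-1 TAC libraries, 358 to 420 in day-7 TAC libraries and 279 to 1014 in sham libraries. Day-1 TAC replicate 1, the library with the highest mean of the 44 replication genes other than MCM2-7, had the lowest granulocyte sum of the TAC libraries, the highest macrophage and fibroblast sums of all 9, and the lowest cardiomyocyte (99689) and endothelial (1572) sums of all 9. With voom weights, macrophage markers fell in 0 with day-7 TAC (unadjusted p under 0.05 for 2 in the limma test), and endothelial markers fell in 0 and rose in 1 with day-1 TAC, where the limma test had 6 at an unadjusted p under 0.05. The fibroblast marker called lower with day-1 TAC was not called with voom weights either, while 6 rose.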

How the data were processed

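Messenger RNA of the left ventricle was purified with oligo-dT beads, made into ScriptSeq v2 libraries and sequenced single-end, per the labels' protocols. The deposited values are log2 values, TMM-scaled by the authors per the file headers. The submitters' processing notes name Trim Galore, STAR, edgeR and the build mm10, without versions. For annotation, strand setting and multiply mapped reads, the sources used here give nothing.

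Of 16710 rows, 12 rows of 3 repeated symbols were dropped, which left 16698 genes. Out of the log, 100.0% of values were whole multiples of a step within 0.001, so whole reads could be recovered, with the lowest value taken as 1 read. Totals were 18535202 to 26521005 reads per library. Genes above 0 in at least 3 libraries were tested (13712). A linear model with 3 group means and an intensity trend was fitted over all 9 libraries with limma 3.58.1 (R 4.3.3). Tests were two-sided, and p-values were adjusted by Benjamini-Hochberg over all tested genes and called under 0.05. A fold change is a difference of mean deposited log2 values. The labels do not say whether libraries of a group came from separate animals, and p-values then measure only how far these samples spread, which may be technical. No library was a copy of another: chi-square per gene between libraries of a group was 10.3 to 30.2. The numbers of sham replicates 2 and 3 follow column order, since their columns share a name.

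The genes, lists and rule for naming genes were chosen with earlier results of these data known: each replication gene was named, those called with every library's value, and of other lists the called genes, up to 4, of smallest p in each comparison, apart from 1 that is not reported here. Coordinates are from GENCODE mouse release 21. The limma step was run on simulated counts with the same dispersion for every gene, for day-1 TAC against sham only. How it performs at the larger spread of the replication genes was not tested. Alternatives were other filters, scalings, pseudocount, samples in the fit, spread models, a minimum fold change, left-out libraries and a replicate block.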

Additional observations from a re-analysis of the deposited data

How the results depend on the processing

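Tested against a fold change of at least 1.2, 2 replication genes were called with day-1 TAC and 4 with day-7 TAC against sham, and 1428, 1066 and 273 of all genes in the comparisons of day-1 TAC with sham, day-7 TAC with sham and day-1 TAC with day-7 TAC. Without the intensity trend 6 were called with day-1 TAC. Between the TAC groups, a fit of these groups alone called 1 gene, Mcm2. Leaving out each library in turn gave 4 to 17 replication genes with day-1 TAC, 5 to 18 with day-7 TAC and 0 to 3 between the TAC groups. It gave 2594 to 4404 of all genes with day-7 TAC and 1261 to 2491 between the TAC groups. These last fits leave fewer libraries, and the other causes were not tested.

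Mcm2 and Mcm3 kept their calls against sham in all 19 alternatives of each comparison, and Mcm5 and Prim1 did so with day-7 TAC. No called fold change turned round in these alternatives. Of all 50 genes, leaving out libraries (a range over all genes added after seeing the data) turned the sign of 11 differences with day-1 TAC against sham, 8 with day-7 TAC and 22 between the TAC groups, none of them called; the largest was Rrm2 with day-1 TAC, at 0.58 with all libraries and -0.15 to 1.10 with 1 library left out. Between the TAC groups Mcm4 spanned -0.33 to 0.18, Pola2 -0.18 to 0.16 and E2f1 -0.69 to 0.067, against 0.0059, 0.014 and -0.25 with all libraries. With upper-quartile scaling the share of calls that were higher was 57.7% with day-1 TAC and 54.3% between the TAC groups, against 41.1% and 38.5%; the replication genes called were then 16 and 0, against 13 and 0.

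Same-numbered TAC libraries deviated with correlations of -0.22, -0.11 and -0.04, and differently numbered ones with -0.17 to 0.23. No pairing by number was seen, but a small shared effect would not show in so few libraries. A replicate block over the TAC libraries called 0 replication genes and 1167 of all genes, against 1 and 2050 in the same fit without it. Genes with few reads, such as Orc1, Cdc6 and Exo1 in sham, carry the largest counting error.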
